A study of Malus domestica with 99 samples.

Results

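Ripening of untreated Fuji apples was followed in the fruit cortex at harvest and at days 1, 7, 14 and 21 after it. Each control day was set against harvest over the transcript entries with a level of at least 4 (log2) in 1 or more of these 5 columns, which kept 16479 of the 27230 entries in the Fuji table (60.5%). The entries just inside this limit had a highest level of 4.0, and those just outside it 3.9999. Of the members, 13960 were at or above the limit in every column, 693 in a single column, and 1296 were below it at harvest. The last group could enter only through a higher level later.

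The study covers the cultivars Fuji, Golden Delicious and Granny Smith, with control fruit and fruit treated overnight with 1-MCP, a gas that blocks ethylene receptors, at each time after harvest. The Fuji groups used here are control fruit at day 1, 7, 14 and 21 and fruit at harvest, none of them treated, each labelled with 3 biological replicates. Control fruit at 2 months and 1-MCP fruit at day 21 are given for a few genes. The labels state no storage temperature, orchard or maturity index. Each value is a mean over the libraries of a group, given in log2 and named FPKM by the authors. Low values return to whole numbers, so they are not per length, and levels are compared here between times of 1 entry and not between genes. The column of day 14 rests on 2 libraries and the other 4 on 3 libraries each, as read from the low values. No spread between replicate fruit and no library depth comes with these means, so a fold change between 2 columns has no replicate check.

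Apple is a climacteric fruit, in which ripening is driven by a burst of the gas ethylene that stimulates its own synthesis. ACC oxidase makes ethylene from its precursor, receptors and the kinase CTR1 hold the response off until ethylene binds, and transcription factors of the ERF family carry it to target genes. Among the processes known to follow are softening of the cell wall, loss of starch, and the making of aroma compounds such as the terpene alpha-farnesene and the volatile products of lipoxygenases.

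Against harvest, few members were past 2-fold at day 1 and far more at day 7, with similar counts at days 14 and 21. At day 1, 356 members (2.16%) were at least 2-fold higher than at harvest and 564 (3.42%) at least 2-fold lower. At day 7 the counts were 1217 higher (7.39%) and 1446 lower (8.77%). At day 14 they were 1289 (7.82%) and 1636 (9.93%), and at day 21 they were 1206 (7.32%) and 1573 (9.55%). At every day more members were lower than higher past 2-fold, and with a 1.5-fold limit the order was the opposite at days 7, 14 and 21 (2750 higher and 2609 lower at day 21). The gap was wider among large changes, with 307 higher and 622 lower by at least 4-fold at day 21, and 79 and 178 by at least 16-fold. The median difference over all members stayed between 0.04 and 0.09 (log2) at the 4 days. Column quantiles nearly match in the deposited values, so a small median difference cannot show whether levels shifted as a whole. These 4 comparisons share the harvest column.

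**Figure D1:**
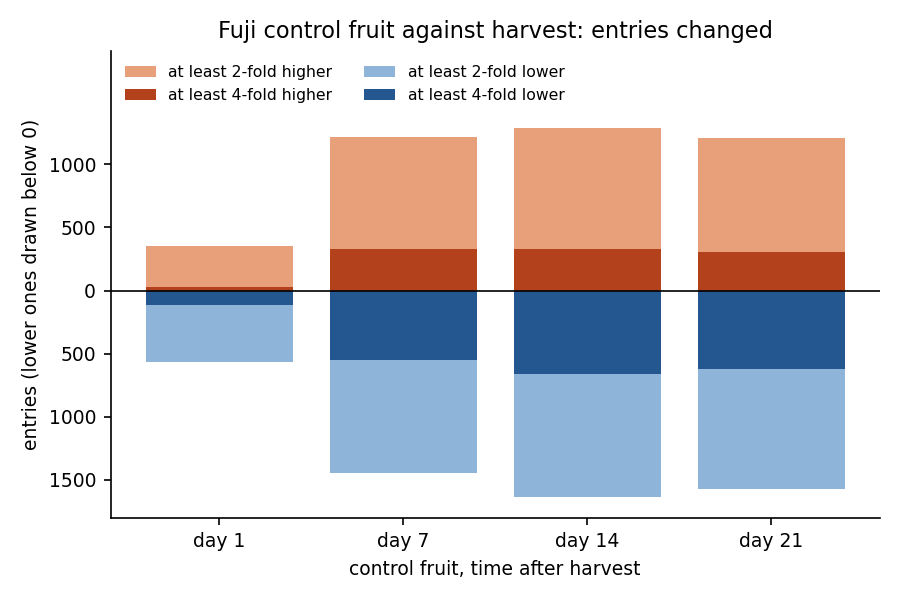
Number of entries (vertical axis) at least 2-fold (light) and 4-fold (dark) higher (above 0) or lower (below 0) than at harvest in Fuji control fruit at each day; bars are counts over 16479 entries and have no error. The count of lower entries was 564 at day 1 and between 1446 and 1636 at days 7, 14 and 21.

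Between neighbouring times the count was highest from day 1 to day 7. These steps differ in length, the first being the shortest, and the counts are not per day. Between harvest and day 1, 920 members differed at least 2-fold, and between day 1 and day 7, 1890 did (11.47%). Between day 7 and day 14 the count was 541 (3.28%), and between day 14 and day 21 it was 280 (1.7%). Both were below the count of the first step, which is shorter. The SD of the step over members was 0.533 for the first step, 0.838 for the second, 0.429 for the third and 0.332 for the last. The last value holds both change over time and noise of the 2 columns, which cannot be told apart without replicate values.

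Members also differed in when they first passed 2-fold. The sampled days are unevenly spaced, so the count at a day also depends on the gap before it. Of the 3872 members that did so at any day (23.5%), 920 passed first at day 1, 1997 at day 7, 705 at day 14 and 250 at day 21. Of those first lower at day 1, 351 of 564 (62.2%) were past 2-fold lower at every later day, and of those first higher at day 1, 175 of 356 (49.2%) were past 2-fold higher at every later day. For those first passing at day 7 the shares were 73.2% of 1047 lower and 63.7% of 950 higher members. Of the members first past 2-fold at day 1, 65 of 564 lower and 25 of 356 higher ones were later past 2-fold in the opposite direction, and of those first past it at day 7, 2 of 1047 lower and 3 of 950 higher ones were. With day 14, the column with fewer libraries, left out, 617 members passed first at day 21.

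A trend over the 5 times was tested with limma, with log2(day + 1) as the time scale. The 5 times come from separate libraries, and the slope is weighed against the scatter of the 5 means around a straight line, with 3 residual degrees of freedom. The test ran over 18452 entries with a mean level of at least 2, among them 16409 of the members. A gene is said here to have risen or fallen where the Benjamini-Hochberg adjusted p of this trend was under 0.05, and the fitted change is the height of the line at day 21 above harvest. Of the entries tested, 1377 rose (7.46%) and 1588 fell (8.61%). With time on a plain day scale only 27 entries were called, and none of the genes and entries named below. Without the day 14 column 885 were called, and without harvest 1041.

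A RefSeq gene table gave names to 136 genes among the members. Of these, 18 rose, 15 fell and 103 were not called, while 1328 of the 16409 members tested rose and 1556 fell. The named genes are those that had been studied before, so their share says nothing of the genome. Libraries were non-directional and identical copies of a gene may share reads, so antisense transcripts and near-identical paralogs cannot be told apart from the gene named. In whole cortex, fewer cells of a type and less RNA per cell cannot be told apart either. Of the markers of phloem, skin, seed and green tissue listed for a check, 2 were found by name: the phloem lectin gene pp2-3, which stood at 7.05, 7.54, 7.91, 7.34 and 7.17 from harvest to day 21, and the anthocyanin gene UFGT of red skin, which was at or near the floor of -1 at all 5 times. The part of other cell types in the results was not tested.

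The ethylene pathway showed a rise at its enzyme and no called trend at its receptors. ACO1, an ACC oxidase (NM_001294118), stood at 11.77 at harvest, 11.43 at day 1, 14.67 at day 7, 14.54 at day 14 and 13.98 at day 21. All 3 columns from day 7 on were above both earlier ones, and its highest level was at day 7. ACO1 rose, with a fitted change of 3.18 (SE 0.672, limma adjusted p 0.0202). The gene record lists ETR1 among its synonyms as well, and the first-listed name was kept. The ethylene receptor genes ETR1 and ETR2 and the kinase gene CTR1 were not called (0 of 3). Most members were not called either (13595 of 16479, untested ones included). ETR2 had its highest level at harvest, 9.37, and stood at 8.61, 9.10, 8.99 and 8.84 at days 1, 7, 14 and 21, while ETR1 stayed within 7.37 to 7.68 and CTR1 within 5.86 to 6.33.

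Of 4 genes of the ERF and AP2 family, 1 rose and 1 fell, against 1328 and 1556 of the 16409 members tested. The ethylene response factor gene ERF1 was higher at each time than at the one before, at 9.95, 10.75, 11.35, 11.50 and 11.82 from harvest to day 21, and it rose by 1.68 (SE 0.206, adjusted p 0.00299). AP2D42 fell by 1.14 on the fitted line (SE 0.215, adjusted p 0.0138), with its lowest level, 6.60, at day 14. Without the day 14 column the adjusted p was 0.118 for ACO1 and 0.0596 for AP2D42, and without harvest it was 0.185 and 0.0849. With eBayes in its plain form, without trend and robust options, the call of ACO1 was lost as well (adjusted p 0.0545).

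**Figure D2:**
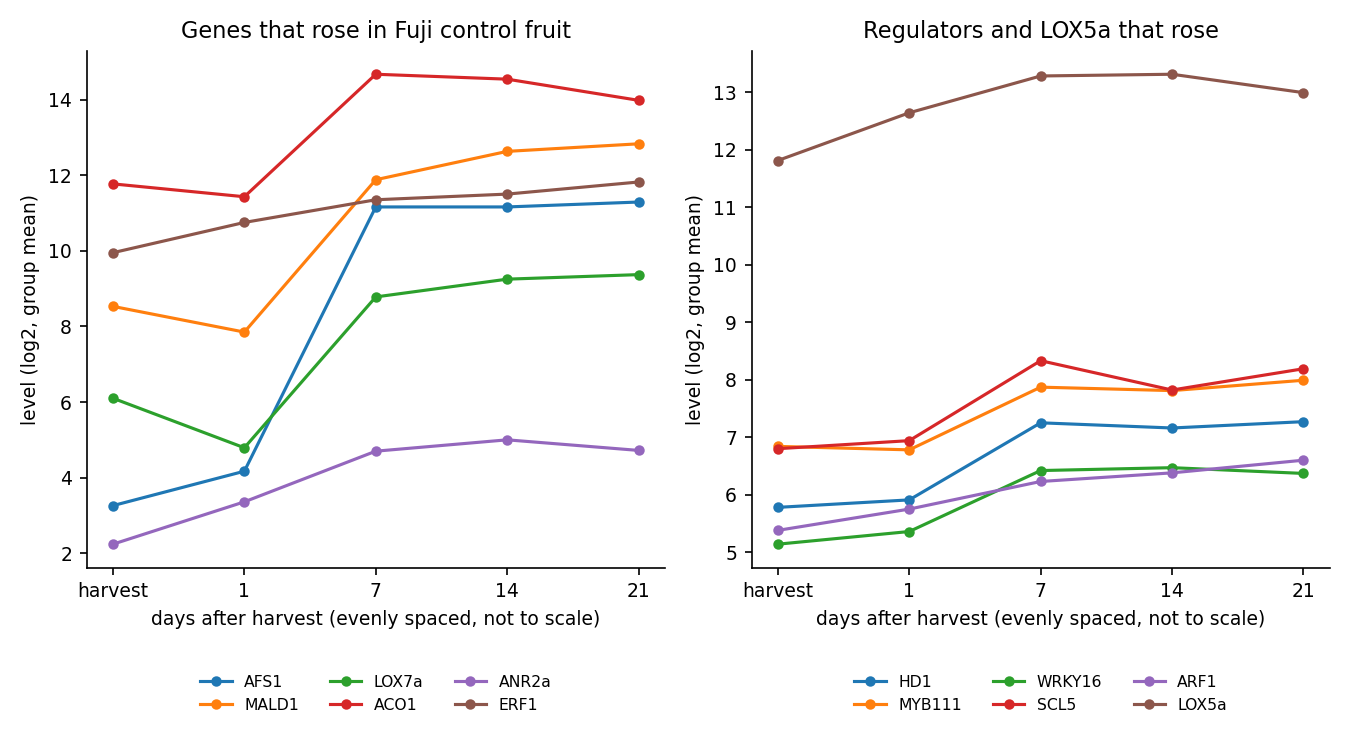
Level (log2, authors' group mean, no error available) of 12 genes that rose, at harvest and days 1, 7, 14 and 21 of Fuji control fruit, each point 1 column. AFS1, MALD1, LOX7a and ACO1 stepped up between day 1 and day 7, while ERF1 climbed from 9.95 at harvest to 11.82 at day 21.

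Aroma and lipid genes held the steepest rise with a gene name. AFS1, the alpha-farnesene synthase, stood at 3.26 at harvest and 4.17 at day 1, and then at 11.16, 11.16 and 11.29 at days 7, 14 and 21. The level of the later columns was thus present at day 7. AFS1 rose by 9.21 on the fitted line (SE 1.02, adjusted p 0.00197), and the measured difference between day 21 and harvest was 8.03. LOX7a, a lipoxygenase gene, was at 6.10 at harvest, 4.79 at day 1, and 8.78, 9.25 and 9.37 at days 7, 14 and 21. It rose by 4.39 (SE 0.783, adjusted p 0.011). LOX5a rose by 1.24 (SE 0.32, adjusted p 0.0397), with levels within 11.81 to 13.31. The lipoxygenase genes LOX8b and LOX2b and FPPS, whose enzyme makes the farnesyl precursor of farnesene, were not called, with day 21 minus harvest differences of 0.52, -0.39 and -0.55. Of the 6 genes of this list 3 rose, against 1328 of the 16409 members tested. The median difference of the 6 at day 21 was 0.85, against 0.08 over all members. Without the day 14 column the adjusted p was 0.0812 for LOX7a and 0.168 for LOX5a, without harvest it was 0.072 for AFS1 and 0.389 for LOX5a, and without day 21 it was 0.0591 for LOX7a. The fitted change of LOX5a was 0.62 without harvest, and its call was also lost with plain eBayes (adjusted p 0.0801).

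MALD1, the gene of the major apple allergen and a member of the PR-10 defence proteins, stood at 8.53, 7.85, 11.88, 12.63 and 12.83 from harvest to day 21. Like LOX7a it was lower at day 1 than at harvest and higher from day 7 on, with its highest level at day 21. MALD1 rose by 5.26 (SE 0.651, adjusted p 0.00308). ANR2a, an anthocyanidin reductase gene of the flavonoid pathway, entered from below the limit, at 2.24 at harvest and 3.36 at day 1, and stood at 4.70, 5.0 and 4.72 later. It rose by 2.61 (SE 0.422, adjusted p 0.00777), a call lost without day 14 (adjusted p 0.0581) or harvest (0.0787).

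The 3 named genes on the cell wall list did not move together, and other genes of the wall were not looked at. XET02, a xyloglucan endotransglucosylase gene, was lower at each time than at the one before, at 9.22, 8.08, 6.0, 5.61 and 4.62 from harvest to day 21. Its fall of 4.38 on the fitted line (SE 0.241, adjusted p 0.000185) was the steepest among the named genes. Its relative XET01 was lowest at day 1, at 4.74 against 7.03 at harvest, and stood at 5.53, 5.85 and 5.76 later. It was not called (adjusted p 0.669), but was called lower without the day 1 column (adjusted p 0.0452). The beta-galactosidase gene BGAL101 peaked at day 7, at 13.85, against 12.59 at harvest and 13.06 at day 21, and was not called either (adjusted p 0.643).

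Genes on the auxin list went in both directions, though the 1 that rose, ARF1, is there by its symbol alone. IAA4, a gene of the Aux/IAA repressors of the auxin response, was highest at day 1, at 9.88 against 9.19 at harvest, and lower at the 3 later times, at 8.46, 8.37 and 7.72. It fell by 1.68 (SE 0.381, adjusted p 0.0252), and the call was lost without day 7, 14 or 21 (adjusted p 0.0694, 0.102 and 0.136) and with plain eBayes (0.065). Without harvest its fitted change was -2.62. IAA9 stood at 2.54 at harvest and between 3.79 and 4.47 at the later times, and was not called (adjusted p 0.267), nor was IAA12 (0.336). ARF1, which the list holds by its symbol, was higher at each time than at the one before, at 5.38, 5.75, 6.23, 6.38 and 6.60, and rose by 1.16 (SE 0.188, adjusted p 0.00793), a call lost without harvest (adjusted p 0.0691). Of 6 genes on the list 1 rose, 1 fell and 4 were not called, while 1328 of the 16409 members tested rose and 1556 fell.

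**Figure D3:**
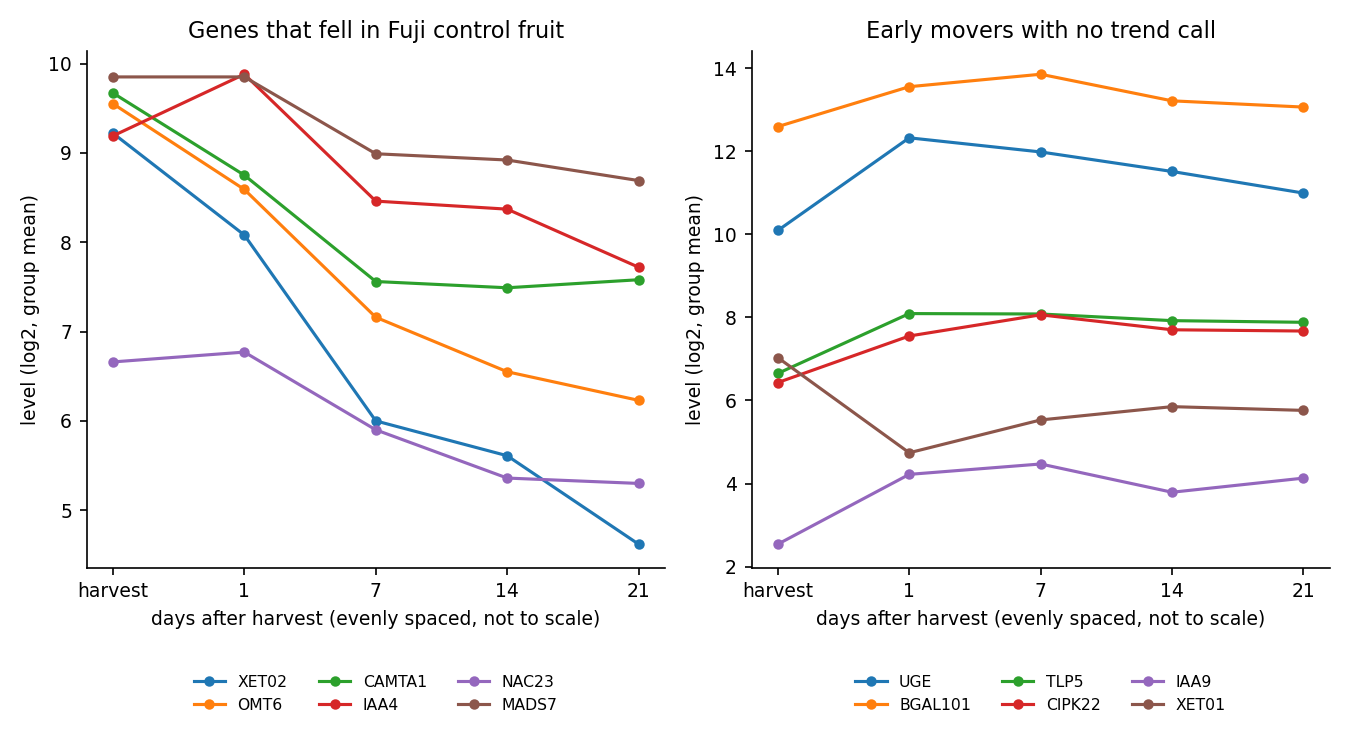
Level (log2, authors' group mean, no error available) of 6 genes that fell and of 6 that moved within the first day or week without a trend call, at harvest and days 1, 7, 14 and 21 of Fuji control fruit. XET02 went down at each step to 4.62 at day 21, and UGE peaked at 12.32 at day 1.

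Both starch genes fell, as did 1 of 2 GABA genes, and at day 1 AMY10 and GABA-T2 were still slightly above harvest. Of all members tested, 1556 of 16409 fell and 1328 rose, and lists of 2 genes cannot speak for a pathway. GBSSIa, a granule-bound starch synthase gene, stood at 10.82, 10.68, 9.77, 10.05 and 10.06 from harvest to day 21, and fell by 0.90 (SE 0.242, limma adjusted p 0.0453). AMY10, an amylase gene, stood at 12.42, 12.51, 11.66, 11.61 and 11.77 and fell by 0.92 (SE 0.227, adjusted p 0.0346). Both differed most between day 1 and day 7, and only GBSSIa at day 7 was past 2-fold of harvest (-1.04). GABA-T2, a GABA transaminase gene, fell by 0.98 (SE 0.214, adjusted p 0.0224). GAD1, whose enzyme makes GABA from glutamate, had its lowest level at day 7, 12.33 against 13.40 at harvest, and was not called (adjusted p 0.102), but was called lower with time as a step from day 7 (0.0416). None of the 4 sugar and sorbitol genes and neither of the 2 carotenoid genes was called. The calls of GBSSIa, AMY10 and GABA-T2 were lost without harvest (adjusted p 0.265, 0.115 and 0.0558), without day 14 (0.149, 0.16 and 0.0932) and without day 21 (0.0702, 0.0564 and 0.0833), and those of GBSSIa and AMY10 also without day 1 (0.0916 and 0.0724). With plain eBayes all 3 were lost (0.0953, 0.0717 and 0.0589), and GBSSIa also with no filter (0.0565) and with weights by libraries (0.0505).

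On the MYB list, the WRKY list and the list of homeobox and other factors, 6 genes rose. The gene HD1, listed with the homeobox factors, stood at 5.78 and 5.91 at harvest and day 1 and at 7.25, 7.16 and 7.27 afterwards, with no overlap between the 2 early and the 3 late columns. HD1 rose by 1.69 (SE 0.257, adjusted p 0.00629). MYB111 was within 7.81 to 7.99 from day 7 on, against 6.84 at harvest and 6.78 at day 1, and rose by 1.31 (SE 0.224, adjusted p 0.00919). WRKY16 rose by 1.44 (SE 0.251, adjusted p 0.0101) and the GRAS factor gene SCL5 by 1.48 (SE 0.312, adjusted p 0.0202). SCL11 and MdTCP2B rose by 1.24 and 1.08 (adjusted p 0.0205 and 0.0461). Of the 14 genes in the list with HD1 and SCL5, 4 rose and none fell, and 12 were higher at day 21 than at harvest, while over all members 1328 of 16409 tested rose and 9366 of 16479 were higher. Of 9 MYB genes 1 rose, and of 8 WRKY genes 1 rose. Without day 14 the adjusted p was 0.056 for MYB111, 0.0685 for WRKY16, 0.0608 for SCL5, 0.101 for SCL11 and 0.118 for MdTCP2B. Without harvest it was 0.0753 for WRKY16, 0.165 for SCL5, 0.0997 for SCL11 and 0.0758 for MdTCP2B, without day 21 it was 0.0718 for SCL5, 0.0553 for SCL11 and 0.159 for MdTCP2B, and without day 1 it was 0.0679 for MdTCP2B. With plain eBayes SCL5 (0.054) and MdTCP2B (0.093) were lost, and MdTCP2B also with no filter (0.0578) and with a mean level of at least 4 (0.0512).

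MADS-box genes fell or were not called. Of 7 MADS genes 3 fell and 4 were not called, and 6 of the 7 were lower at day 21 than at harvest, with a median of -0.68. Over all members 1556 of 16409 tested fell and 7107 of 16479 were lower, with a median of 0.08. MADS7 was at 9.85 at harvest and at day 1, and then at 8.99, 8.92 and 8.69, and fell by 1.25 (SE 0.176, adjusted p 0.00463). MADS2 fell by 1.86 (SE 0.421, adjusted p 0.0252) and MADS8-1 by 0.60 (SE 0.159, adjusted p 0.0431). DAM2 was the 1 MADS gene above harvest at day 21, at 6.02 against 4.84, a difference of 1.18. It was not called (limma adjusted p 0.207). Of 5 NAC genes NAC23 fell by 1.57 (SE 0.242, adjusted p 0.00658), with 6.66 at harvest and 5.30 at day 21. NAC1 was within 8.62 to 9.12 up to day 14 and stood at 7.80 at day 21, with no trend call (adjusted p 0.173). The call of MADS2 was lost without day 1, 14 or 21 or harvest (adjusted p 0.0515 to 0.0946), and that of MADS8-1 without any 1 of the 5 times (0.051 to 0.273), with time as a step (0.106), no filter (0.0571) and plain eBayes (0.0849).

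**Figure D4:**
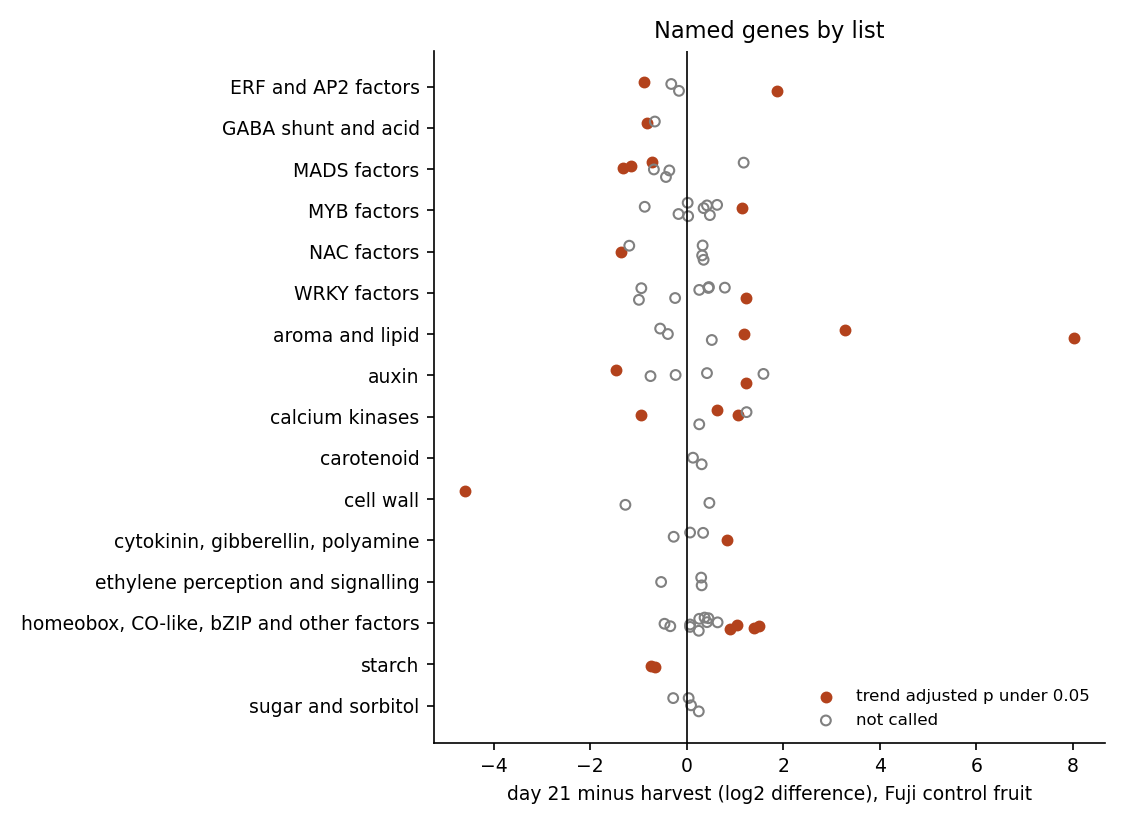
Difference between day 21 and harvest (log2, horizontal axis) in Fuji control fruit for named genes in lists of 2 or more, 1 point per gene, filled where the limma trend had an adjusted p under 0.05 and open where it did not; vertical scatter within a list has no meaning. AFS1 lies farthest right, at 8.03, and XET02 farthest left, at -4.60.

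Among calcium-signalling kinases of the CIPK family, 2 of 5 rose and 1 fell, against 1328 and 1556 of the 16409 members tested. CIPK08 stood at 8.47, 9.11, 9.42, 9.50 and 9.54 and rose by 0.96 (SE 0.198, adjusted p 0.0185), CIPK30 rose by 0.61 (adjusted p 0.0417), and CIPK27 fell by 1.14 (SE 0.225, adjusted p 0.0157). These 3 calls were lost without day 14 (adjusted p 0.0939, 0.15 and 0.0754) and without harvest (0.171, 0.301 and 0.13), CIPK08 and CIPK30 also without day 21 (0.0555 and 0.103), and CIPK30 without day 1 or 7 (0.051 and 0.0616). With plain eBayes CIPK08 (0.0535) and CIPK30 (0.0832) were lost, and CIPK30 also with time as a step (0.0646) and no filter (0.0554). Without harvest the fitted change of CIPK08 was 0.56. CAMTA1, a calmodulin-binding transcription activator gene, stood at 9.67, 8.75, 7.56, 7.49 and 7.58, with the low level present by day 7, and fell by 2.15 (SE 0.295, adjusted p 0.00422). OMT6 was lower at each time than at the one before, at 9.55, 8.59, 7.16, 6.55 and 6.23, and had a fitted change of -3.29 (SE 0.171, adjusted p 0.000155). The dehydrin gene DHN2 fell by 1.57 (SE 0.435, adjusted p 0.0491), a call lost without any 1 of harvest, day 1, day 14 or day 21 (adjusted p 0.0553 to 0.28). It was also lost with no filter, a mean level of at least 4, 4 added to the values, weights by libraries or plain eBayes (0.0558 to 0.0905), and with time as a step, where the fitted change was -0.95 (0.213).

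Few named genes moved 2-fold within the first day, and most of those lacked a trend call. At day 1, 5 of 136 (3.7%) were at least 2-fold higher and 5 (3.7%) at least 2-fold lower, against 2.16% and 3.42% of all members. The 5 higher genes were UGE, IAA9, TLP5, CIPK22 and ANR2a, and the 5 lower ones XET01, HMT, WRKY12, LOX7a and XET02; UGE, TLP5 and HMT are named here after their values were seen. UGE stood at 12.32 at day 1, against 10.09 at harvest, and came down at each later time, at 11.98, 11.51 and 10.99. TLP5 stood at 6.65 at harvest and within 7.88 to 8.09 at the 4 later times. CIPK22 was at 6.43 at harvest, 7.55 at day 1 and 8.06 at its peak at day 7. HMT had its lowest level at day 1, at 4.86 against 6.81 at harvest, and stood at 7.41 at day 7. UGE, TLP5, CIPK22, HMT and WRKY12 had adjusted p of 0.707, 0.209, 0.108, 0.243 and 0.769; without the day 1 column TLP5 was called higher (adjusted p 0.0282), and without harvest UGE was called lower (0.0411). At day 7, 16 named genes (11.8%) were at least 2-fold higher and 7 (5.1%) lower, against 7.39% and 8.77% of all members. At day 14 they were 17 (12.5%) and 13 (9.6%), against 7.82% and 9.93%, and at day 21 18 (13.2%) and 10 (7.4%), against 7.32% and 9.55%. The named genes thus had more higher than lower at days 7, 14 and 21, and the members more lower than higher.

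The largest changes belonged to entries without a gene name. The entry L31347 was at 0.33 at harvest and at day 1, and at 8.92, 8.78 and 9.69 at days 7, 14 and 21. AY428581 stood at 1.11, 1.64, 9.56, 9.77 and 10.64, and had the widest rise, with a day 21 minus harvest difference of 9.54. XM_008348443, NM_001300878 and AY787638 were between 9.07 and 9.22 higher at day 21, and all 5 rose, with limma adjusted p of 0.00126 to 0.00233. The calls of L31347 and XM_008348443 were lost without harvest (adjusted p 0.055 and 0.0524), as was that of AY787638 (0.0764). In the other direction, XM_008370206 stood at 11.37, 10.47, 3.56, 1.29 and 1.20, and LOC103416977 at 11.43, 10.50, 3.76, 1.58 and 1.86. The 2 profiles were nearly the same at all times. XM_008343264 took a similar course, at 11.65, 10.77, 3.80, 2.90 and 2.27. Among the entries that rose, NM_001300878 lay close to AY428581, at 1.60, 1.44, 9.58, 9.82 and 10.69. Whether these entries share reads was not tested, so they may not be separate changes. LOC103406907 went down more evenly, at 12.68, 10.42, 6.47, 3.58 and 3.20, and fell by 9.75 (SE 0.341, adjusted p 4.44e-05). LOC103440292, at 8.01 at harvest, was at the floor of -1 at day 21, which means that it was listed at 0 there. Its fitted change was -9.52, and -6.23 with 4 added to the values. In all, 8 members were at 8 or more at day 21 and under 2 at harvest, and 11 were under 2 at day 21 and at 8 or more at harvest.

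The same trend was fitted in Golden Delicious and Granny Smith control fruit, which share no column with Fuji, over the entries the Fuji table holds. Of the members that rose in Fuji and were tested in both, 718 of 1294 (55.5%) also rose in Golden Delicious, which is 35.7% of the 2014 that rose there, and 15 fell. In Granny Smith 858 of 1265 (67.8%) rose, or 29.8% of the 2881 that rose there, and 7 fell. Of the members that fell in Fuji, 1010 of 1445 (69.9%) fell in Golden Delicious and 1035 of 1490 (69.5%) in Granny Smith, with 11 and 49 that rose. For comparison, 12.7% and 12.5% of all entries tested rose and fell in Golden Delicious, and 17.0% and 16.4% in Granny Smith. Fewer entries were called in Fuji (16.1%) than in Golden Delicious (25.2%) or Granny Smith (33.4%), but a count of calls also depends on the scatter of the columns, and the difference between counts was not tested.

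The difference between the Fuji trend and the mean trend of the other cultivars was tested in 1 limma model over the 15 control columns. It was called for 263 of 18401 entries (1.43%), with the Fuji trend above in 102 (0.554%) and below in 161 (0.875%). Without the day 14 columns 3 entries were called. Among the named genes FPPS was called: its fitted change was -0.38 in Fuji (adjusted p 0.371), -0.99 in Golden Delicious (0.0665) and -3.14 in Granny Smith (0.000962), a difference of 1.68 for Fuji (SE 0.339, adjusted p 0.0316). The call was lost without any 1 of the 5 times (0.0561 to 0.253) and with time as a step (0.0691). Without Granny Smith the difference was 0.61 (0.568), and without Golden Delicious 2.75 (0.00699). For the ripening genes above the difference was not called. The fitted change of ACO1 was 3.18 in Fuji, 3.15 in Golden Delicious and 9.49 in Granny Smith (adjusted p of the difference 0.219). That of AFS1 was 9.21, 5.77 and 13.07 in the same order (adjusted p 0.98), and that of MALD1 was 5.26, 4.09 and 4.17 (adjusted p 0.515). For AFS1 the Fuji change lay between those of the other cultivars. A test against their mean cannot show whether Fuji differed from either of them. XET02 fell by 4.38 in Fuji, and its changes of -3.22 and -2.03 in the other cultivars were not called there (adjusted p 0.146 and 0.243), while the difference was not called either (0.669). OMT6 came nearest among the genes that fell, with -3.29 in Fuji, -1.81 in Golden Delicious and -1.01 in Granny Smith (adjusted p of the difference 0.0772). A p above the threshold does not show that the trends were alike.

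**Figure D5:**
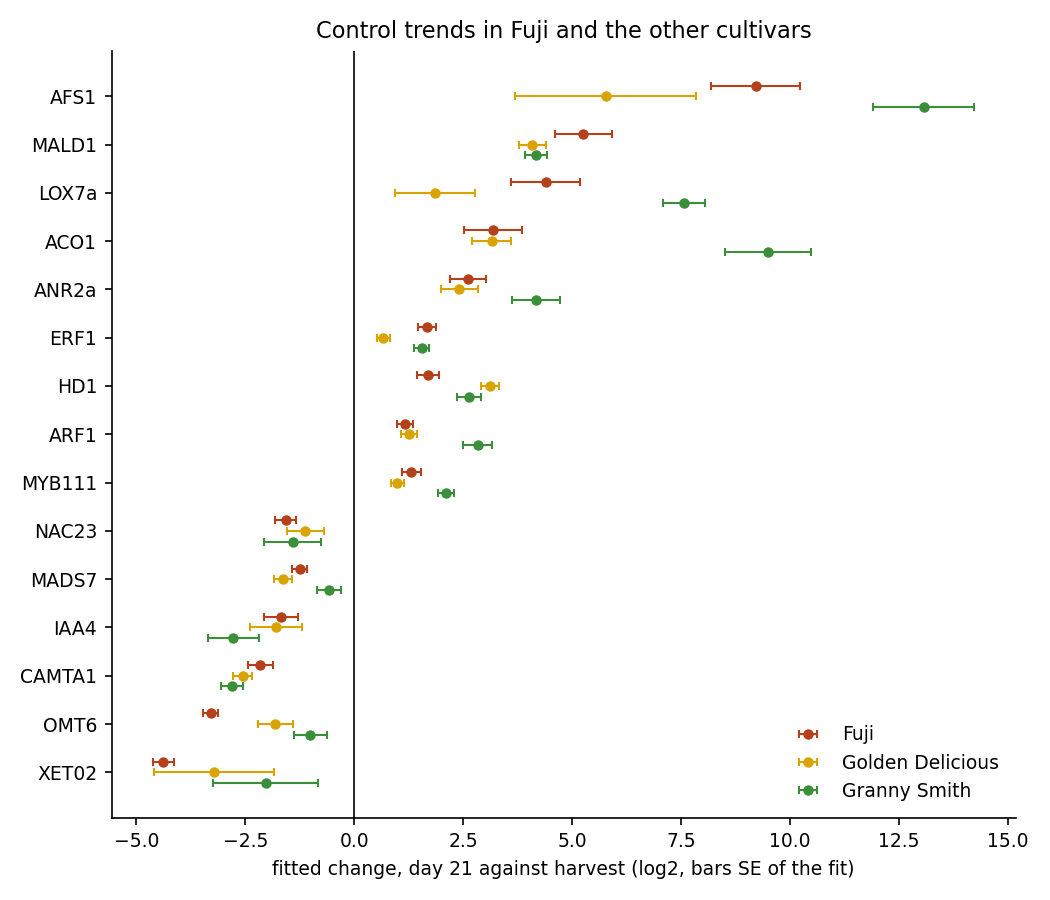
Fitted change from harvest to day 21 (log2, points) with the SE of the limma fit (bars) for 15 genes in Fuji, Golden Delicious and Granny Smith control fruit, 5 columns per cultivar. CAMTA1 was called lower in each cultivar, at -2.15 for Fuji, -2.56 for Golden Delicious and -2.81 for Granny Smith, and the Granny Smith point of ACO1, 9.49, lies to the right of the Fuji point, 3.18.

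Treated Fuji fruit at day 21 stood apart from control fruit for several genes of the course. At that day MALD1 was at 4.65 in 1-MCP fruit, against 12.83 in control fruit, and XET02 was at 8.22 in 1-MCP fruit, against 4.62 in control fruit. For CAMTA1 and MADS7 the levels lay close together, at 7.82 and 8.60 in 1-MCP fruit, against 7.58 and 8.69 in control fruit. Among genes that rose, ACO1, AFS1 and LOX7a were at 6.38, 1.72 and 3.04 in 1-MCP fruit, against 13.98, 11.29 and 9.37 in control fruit. The risen genes ERF1 and ARF1 lay closer, at 11.15 and 7.11 in 1-MCP fruit, against 11.82 and 6.6 in control fruit. The genes given are a selection, and the values are of single columns and were not tested here.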

How the data were processed

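RNA of fruit cortex was sequenced from non-directional libraries as 100-base reads, per the labels' protocols. The tools named are STAR 2.5.1a and HTSeq, per the submitters' processing notes; the genome build is not given in the sources used here. The deposited tables hold 1 column per group on the log2 scale, made by the authors as means over libraries of log2 values. A 0 became 0.5 first and -1 is the lowest value. Values under 2.5 showed this: they give whole numbers when turned back, with a tolerance of 0.0003. Column quantiles nearly match within and between the 3 tables. Library depth is unknown, so no counting interval is given.

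Differences from harvest and fits with limma 3.58.1 (R 4.3.3) were computed from these means. The tests were two-sided, from lmFit and then eBayes, robust and with a trend, with Benjamini-Hochberg adjustment. The fits were also run on simulated straight lines with independent noise, which cannot show how they act on profiles that step or bend. Because the tables hold group means, the p-values weigh a trend against the scatter of 5 times around a line, not against replicate fruit. Entries were matched to RefSeq genes of GDT2T_hap1 by accession, ignoring versions, for names alone; 7754 members (47.1%) matched and 158 entries of 136 genes had a name. Where a name had several entries, that with the highest mean level stood for it, and the other entries were not described. Genes were named by their list, up to 4 per list by size of the day 21 difference with all of the ethylene, cell wall, aroma and auxin lists, and by the 10 largest rises and falls; for entries without a name the 5 largest each way. Fewer were described than this rule allows. The members and lists were chosen with earlier results of these data known, and the list patterns were tightened after the names were seen. The alternatives are another filter, added value, centring, fold limit, time scale, weights, eBayes options, and leaving out a time or cultivar.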

Additional observations from a re-analysis of the deposited data

Results flagged for a closer look

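The trend over the 5 control times differed between Fuji and the mean of Golden Delicious and Granny Smith by the test of the difference itself (limma, adjusted p under 0.05), with 102 entries above and 161 below the other cultivars. The 3 entries with a locus number farthest on each side, and the 1 named gene, were chosen after their values were seen. LOC103405572 rose by 5.66 in Fuji, with changes of -2.18 in Golden Delicious and -0.74 in Granny Smith that were not called (difference 7.12, SE 1.35, adjusted p 0.0265). LOC103442292 fell in all 3 cultivars, with -0.93 in Fuji, -5.12 in Golden Delicious and -6.69 in Granny Smith (difference 4.97, SE 0.495, adjusted p 0.00126). LOC103442188 had a change of 0.30 in Fuji that was not called and fell by 3.48 and 4.43 in the others (difference 4.26, SE 0.928, adjusted p 0.0438). LOC103400918 fell by 2.61 in Fuji and rose in the others, by 1.08 in Golden Delicious and by 5.07 in Granny Smith (difference -5.69, SE 0.934, adjusted p 0.0164). LOC103401358, at 0.23 in Fuji, rose by 3.51 and 7.59 in the others (difference -5.32, SE 0.716, adjusted p 0.00467). LOC103452083, at -0.10 in Fuji, rose by 2.04 and 7.86 (difference -5.05, SE 0.625, adjusted p 0.00416). FPPS differed by 1.68 (SE 0.339, adjusted p 0.0316). All 7 calls were lost without the day 14 columns (adjusted p 0.0769 to 0.264), and 4 without day 21 (LOC103405572 0.0682, LOC103400918 0.106, FPPS 0.164, LOC103442188 0.273). Without Granny Smith 5 were lost, with differences of 0.61 for FPPS (0.568), 3.78 for LOC103442188 (0.115), -3.28 for LOC103401358 (0.0797), -2.14 for LOC103452083 (0.0783) and 7.84 for LOC103405572 (0.0736), and that of LOC103400918 was -3.69 (0.018). Without Golden Delicious LOC103405572 was lost (0.0642), and the differences of FPPS and LOC103452083 were 2.75 and -7.96. Without day 1 FPPS (0.142), LOC103405572 (0.105) and LOC103442188 (0.0886) were lost, without day 7 FPPS (0.0561) and LOC103442188 (0.0595), and without harvest FPPS (0.0702) and LOC103405572 (0.184). With time as a step FPPS (0.0691), LOC103442188 (0.137) and LOC103452083 (0.073) were lost, and with no filter LOC103442188 (0.0503). Without harvest or day 14 the Fuji trend of LOC103405572 (adjusted p 0.184 and 0.116) and LOC103442292 (0.264 and 0.0932) was not called, and without harvest that of LOC103400918 was not (0.0921). With 4 added to the values the Fuji change of LOC103405572, at 0.67 at harvest, was 3.51 (0.0536) and its difference 4.54 (0.0346). The Fuji call of LOC103442292 was also lost without day 1 (0.0502), without day 21 (0.0827) and with plain eBayes, without trend and robust options (0.0758).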

How the results depend on the processing

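No paired analysis was possible because the tables hold 1 mean per group, with no replicate numbers; for the same reason the planned fits that leave out a replicate were not run. Members at least 2-fold from harvest numbered 920, 2663, 2925 and 2779 at days 1, 7, 14 and 21. With a level minimum of 6 they numbered 487, 1666, 1790 and 1680, with no filter 2230, 4756, 5390 and 5076, with a 1.5-fold limit 2880, 5515, 5744 and 5359, with a 4-fold limit 144, 877, 983 and 929, and with a level minimum of 2 1696 at day 1. The members first past the limit, 920, 1997, 705 and 250 at the 4 days, numbered 487, 1300, 383 and 120 with the minimum of 6, 2230, 3359, 1669 and 661 with no filter, 2880, 3484, 1185 and 473 at 1.5-fold, and 144, 770, 255 and 76 at 4-fold. With the minimum of 2 there were 1696, 1113 and 419 at days 1, 14 and 21, and without day 14, an alternative chosen after seeing the data, 617 at day 21. Under each of these filters and limits, more entries passed first at day 7 than at any other day. The gap before day 7 is longer than that before day 1. The Fuji trend was called for 2965 entries, against 27 with time as day (3475 at an unadjusted p under 0.05), 1041 without harvest, 885 without day 14 and 1760 without day 21. For Golden Delicious (4621) these settings gave 1847, 2879, 1486 and 2011, and for Granny Smith (6134) the first 3 gave 2410, 3446 and 3432. The cultivar difference (263) was called for 24 with time as day, 159 with time as a step from day 7, 131 without harvest, 106 without day 1, 3 without day 14, 33 without day 21, 643 without Golden Delicious and 113 without Granny Smith. Under the other settings run for these trends the counts stayed within 1.5 times, but single calls were lost. Of the 43 genes and entries named here with a Fuji call, 13 lost it with eBayes without trend and robust options, 5 with no filter, 3 with time as a step, 2 each with a mean level of at least 4, 4 added to the values and weights by libraries, and 0 with centred columns. All 43 lost it with time as day, 25 without harvest, 22 without day 14, 14 without day 21, 8 without day 1 and 3 without day 7. None of the 43 changed sign. Fitted changes that changed sign were those of BGAL101 (-0.01) and UGE (-0.08) with time as day, LOC103452083 (0.01) and WRKY12 (0.02) with time as a step, and LOC103452083 without day 14 (0.11). Without harvest they were BGAL101 (-0.63), ETR2 (0.38), FPPS (0.10), IAA9 (-0.32), LOC103401358 (-0.18), LOC103442188 (-0.68), LOC103452083 (0.34), TLP5 (-0.28), UGE (-1.58), WRKY12 (1.02) and XET01 (1.44). The cause of these shifts was not tested. Depth and replicate spread are unknown, which limits every value for 1 column.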

Other observations

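The 2-month column of Fuji control fruit was used by none of the comparisons above. Of the members that fell by trend and were at least 2-fold lower at day 21, 387 of 1177 (32.9%) were within 2-fold of their harvest level at 2 months. Of those that rose likewise, 359 of 862 (41.6%) were. The share over all members was not computed. Both sets were chosen by their difference from the same harvest column, so a return cannot be told apart from noise in the harvest and day 21 columns. CAMTA1 stood at 10.04 at 2 months, against 7.58 at day 21, and LOC103406907 at 12.23 against 3.20. DHN2, the dehydrin gene, a type of protein known for its link to drying and cold, stood at 14.31 at 2 months, against 4.84 at day 21 and 6.48 at harvest. AFS1 and MALD1 were at 11.46 and 12.53 at 2 months, against 11.29 and 12.83 at day 21, and XET02 was at 4.52, against 4.62. HD1 stood at 5.58 at 2 months, against 7.27 at day 21. These are single columns with no test, and the labels give no storage conditions for them.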
